A study of Mus musculus with 12 samples.

Results

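The heat shock and unfolded protein response genes described here are 37 genes of molecular chaperones, stress sensors and protein degradation, taken by gene symbol from the 24060 genes of the count table. They were divided by compartment and role into 13 genes of protein folding in the endoplasmic reticulum (ER), 7 stress sensors and transcription factors, 3 genes of ER-associated degradation, 11 cytosolic heat shock genes and 3 mitochondrial chaperones. Of the 37 genes, 36 passed the filter on low counts and were tested among 14354 genes. The remaining gene, Trib3, is described by its counts.

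The series profiled RNA of brain white matter from 6 male Tie2-Cre:Rpl22-HA (RiboTag) mice, in which Cre driven by the Tie2 (Tek) promoter, active in endothelial cells and in some blood cells, adds a hemagglutinin (HA) tag to the ribosomal protein Rpl22. All 6 animals carried both alleles, so the groups were defined by diet and by RNA fraction and not by genotype. Fat made up 10% of kcal in the control-fat diet (CFD) and 60% of kcal in the high-fat diet (HFD), with 3 animals each (489, 555 and 556 on CFD, and 516, 517 and 676 on HFD). Each animal gave an anti-HA ribosome pulldown library (IP) and an input library, so 12 libraries formed 4 groups of 3, and the labels give no age.

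Chaperones bind unfolded proteins and help them reach their native structure, and each compartment has its own set. Unfolded protein in the ER lumen activates the membrane sensors IRE1, PERK and ATF6, which raise the transcription of ER chaperones and degradation factors through XBP1, ATF4 and cleaved ATF6. In the cytosol the transcription factor HSF1 binds heat shock elements and induces heat shock proteins after heat or oxidative stress, and both programs are studied in vascular endothelium as responses to metabolic load.

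The DNA sequence elements behind these 2 programs are printed because they show which members share a known stress-response site in the promoter. RefSeq promoter windows (GRCm38.p6, the mm10 assembly, 250 bases before to 50 bases after the annotated start) were present for 29 of the 37 genes. The ER stress element was searched on both strands as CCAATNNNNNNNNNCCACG, which contains the CCAAT box. It was found in 39 of 32851 windows (0.119%) from all genes, and 8 of the 29 members with a window carried it, namely Hspa5, Hsp90b1, Calr, Canx, Pdia6, Dnajc3, Creld2 and Syvn1. The CCAAT box alone was in 37.4% of all windows. The sites are given below 5′ to 3′ on the strand of the motif, with the fixed bases in capitals and 10 bases on each side.
Hspa5, chr2:34772015-34772053, plus strand: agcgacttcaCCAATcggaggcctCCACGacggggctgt
Hsp90b1, chr10:86705628-86705666, minus strand: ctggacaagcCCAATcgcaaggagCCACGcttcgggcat
Hsp90b1, chr10:86705523-86705561, plus strand: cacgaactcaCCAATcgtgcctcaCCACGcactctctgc
Calr, chr8:84847065-84847103, plus strand: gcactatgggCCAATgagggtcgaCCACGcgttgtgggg
Canx, chr11:50325790-50325828, minus strand: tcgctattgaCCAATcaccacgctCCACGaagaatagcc
Pdia6, chr12:17266481-17266519, plus strand: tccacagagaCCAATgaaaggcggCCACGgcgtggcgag
Dnajc3, chr14:118937817-118937855, plus strand: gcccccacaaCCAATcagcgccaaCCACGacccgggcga
Creld2, chr15:88819510-88819548, minus strand: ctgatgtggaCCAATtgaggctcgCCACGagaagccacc
Syvn1, chr19:6046522-6046560, plus strand: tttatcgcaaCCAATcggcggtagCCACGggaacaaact

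All 9 sites lay upstream of the annotated start, from 44 bases in Syvn1 to 212 bases in Hsp90b1, and Hsp90b1 was the member with more than 1 site. The full window of Hspa5, the ER chaperone BiP, is printed because its promoter held 4 CCAAT boxes, of which the last belonged to the ER stress element 65 bases before the start. The boxes, in either orientation, and the second part of the element are in capitals.
Hspa5, chr2:34771840-34772139, plus strand: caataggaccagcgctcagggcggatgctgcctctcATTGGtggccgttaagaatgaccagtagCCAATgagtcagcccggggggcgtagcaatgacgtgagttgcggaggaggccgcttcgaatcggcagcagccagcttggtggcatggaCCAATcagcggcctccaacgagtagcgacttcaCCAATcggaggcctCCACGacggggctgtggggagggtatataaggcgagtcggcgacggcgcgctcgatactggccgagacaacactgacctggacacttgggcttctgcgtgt

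The heat shock element was searched on both strands as the alternating blocks GAA, TTC and GAA with 2 bases between blocks, and was in 198 of 32851 windows (0.603%). The members with a match were Hspd1 and Hspe1, which encode mitochondrial Hsp60 and its partner Hsp10, and Hsph1, a cytosolic nucleotide exchange factor. Hspd1 and Hspe1 are transcribed away from each other, their annotated spans share 96 bases, and the windows of both held the same run of 4 alternating blocks, printed here with the blocks in capitals.
Hspd1 and Hspe1, chr1:55088049-55088086, plus strand: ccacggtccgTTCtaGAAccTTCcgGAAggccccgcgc
Hsph1, chr5:149636278-149636310, plus strand: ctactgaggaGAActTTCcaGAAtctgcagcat

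A match is a description of the sequence, and a window without one says only that these letters were not found in it. Hspa1a and Hspa1b encode the stress-inducible cytosolic Hsp70, and their 300-base windows had 296 identical bases (98.7%). These windows lie mostly before the start, so they do not show how alike the transcripts are. How reads that match both copies were counted is not given, so the separate counts of the 2 genes are uncertain. Of the 37 genes, 8 overlapped another protein-coding gene in the RefSeq annotation (Hspa5, Pdia3, Pdia6, Atf6, Ddit3, Syvn1, Hspd1 and Hspe1), and whether reads were counted by strand is not given in the sources used here.

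Counted reads per library ranged from 19567186 to 33660708, and the ribosomal RNA gene Rn45s took 38.7% to 42.3% of them in CFD IP, 17.1% to 19.1% in HFD IP, 8.602% to 14.2% in CFD input and 6.34% to 9.29% in HFD input. The Rn45s share thus separated the 2 diets in IP, and IP from input in each diet, without overlap. Levels are given as CPM, the usual scaling of counts to library size, after TMM normalization of the libraries. The pulldown was checked with 12 endothelial markers, whose summed level was 18.0 to 44.7 CPM in CFD input, 59.9 to 285 CPM in CFD IP, 39.5 to 73.5 CPM in HFD input and 36.2 to 108 CPM in HFD IP. The endothelial sum of CFD IP therefore lay above that of CFD input, whereas the HFD fractions overlapped, and Tek itself had 0 to 80 counts. The summed level of 7 neuron markers was 5097 to 8996 CPM in CFD IP and 8536 to 10130 CPM in HFD IP, and that of 8 oligodendrocyte markers was 3001 CPM or more in each IP library, so pulldown RNA held much RNA of other cell types. Libraries of these bulk samples cannot tell fewer cells of a type from less RNA per cell.

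The cytosolic chaperones gave most of the signal of the 37 genes. Per kilobase of gene length, the highest mean levels over the 12 libraries were those of Hsp90ab1 at 525 CPM, Hspa8 at 321 CPM, Hsp90aa1 at 199 CPM and Hsph1 at 134 CPM, all cytosolic. Hsp90b1, the ER form of Hsp90, followed at 107 CPM, and Hspa5 was at 58.9 CPM and Calr at 56.2 CPM per kilobase. Of the sensors, Atf6 was at 19.5 CPM per kilobase, close to Hyou1 at 19.0 CPM and Pdia6 at 17.6 CPM, whereas Eif2ak3 (PERK) was at 2.80 CPM and Ern1 (IRE1) at 1.26 CPM per kilobase.

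**Figure D1:**
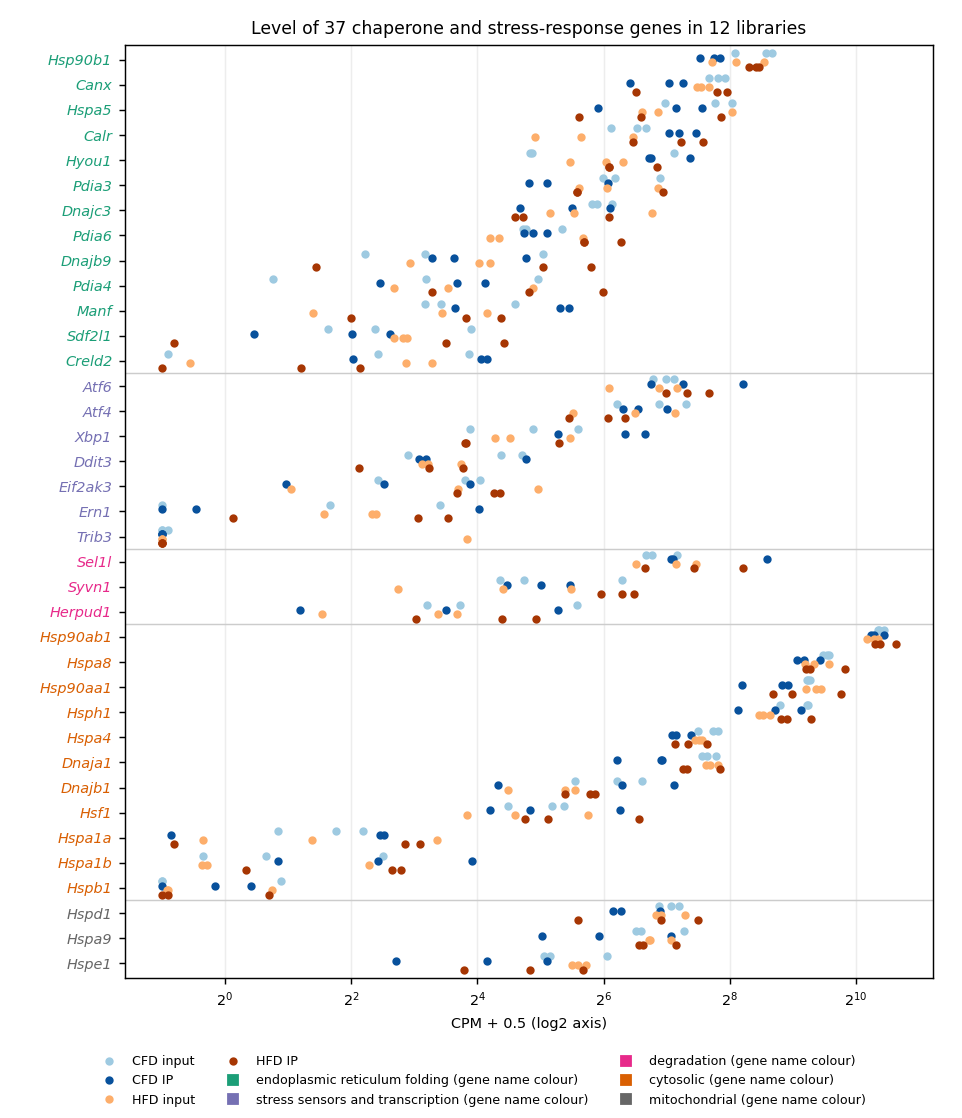
Level of the 37 genes in the 12 libraries, as CPM plus 0.5 on a log2 axis, with 1 point a library coloured by group and gene names coloured by class. Hsp90ab1 stayed between 1150 and 1597 CPM, whereas low genes such as Ern1, Creld2 and Hspa1b spread over much of the axis.

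The constitutive cytosolic chaperones varied least between libraries. Hsp90ab1, the constitutive Hsp90, measured 1307, 1317 and 1401 CPM in CFD input, 1398, 1214 and 1245 CPM in CFD IP, 1250, 1150 and 1302 CPM in HFD input, and 1339, 1269 and 1597 CPM in HFD IP. Its highest level was 1.39 times its lowest. Hspa8, the constitutive Hsp70, measured 757, 716 and 741 CPM in CFD input, 692, 535 and 576 CPM in CFD IP, 643, 586 and 761 CPM in HFD input, and 590, 616 and 903 CPM in HFD IP. Its CFD IP libraries all lay below its CFD input libraries, and its diet groups overlapped in both fractions.

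The stress-inducible cytosolic Hsp70 genes had counts in all 12 libraries, at low listed levels that depend on how reads matching both of the 2 copies were counted. Hspa1a was at 0.0517 to 9.77 CPM and Hspa1b at 0.278 to 14.5 CPM, and the highest values fell in different groups, HFD input for Hspa1a and CFD IP for Hspa1b. Hspb1, a small heat shock protein, had at most 37 counts and was at 0 in 4 libraries. Hsf1, the transcription factor of the heat shock response, measured 40.9, 35.9 and 22.0 CPM in CFD input, 76.4, 17.9 and 28.2 CPM in CFD IP, 23.7, 13.7 and 53.5 CPM in HFD input, and 94.4, 26.6 and 34.4 CPM in HFD IP, so that all 4 groups overlapped.

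The other ER members were of low to moderate level, and their libraries overlapped between diets in each fraction and between fractions in each diet. The disulfide isomerases Pdia3 and Pdia4 ranged over the 12 libraries from 27.8 to 123 CPM and from 1.20 to 63.0 CPM. Hyou1, the nucleotide exchange factor of Hspa5, ranged from 27.9 to 165 CPM, its J-domain cochaperones Dnajb9 and Dnajc3 from 2.22 to 55.5 CPM and from 23.8 to 109 CPM, and Sdf2l1, which acts with them, from 0.0694 to 20.9 CPM. The sensor Atf6 ranged from 67.6 to 296 CPM, and the degradation genes Herpud1 and Sel1l from 1.79 to 47.1 CPM and from 91.3 to 387 CPM. In the cytosol, Dnajb1, a J-domain cochaperone induced by HSF1, ranged from 19.5 to 138 CPM.

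The biological coefficient of variation estimated by edgeR, which is moderated toward genes of similar level, had a median of 50.8% over the 36 tested members and 85.8% over all genes tested. Its class median was 32.3% for cytosolic genes, 41.3% for mitochondrial chaperones, 50.9% for ER folding genes, 57.7% for degradation genes and 69.3% for sensors and transcription factors. The most variable member was Hspb1 (208%), followed by Ern1 (147%) and Hspa1a (137%).

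**Figure D2:**
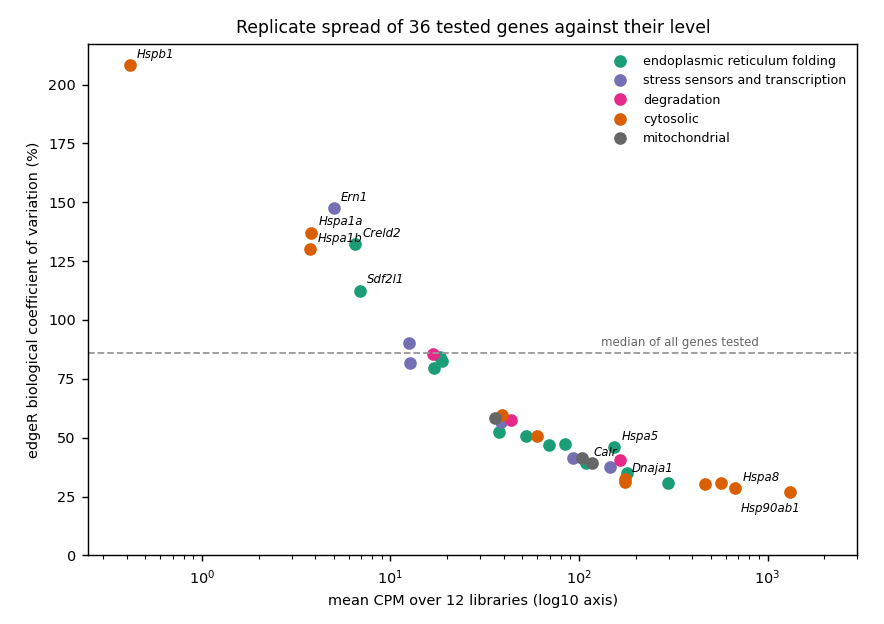
Biological coefficient of variation (%) of the 36 tested genes against their mean CPM over 12 libraries on a log10 axis, coloured by class, with a dashed line at the median of all genes tested (85.8%). The variation fell with the level, from 208% for Hspb1 to 26.8% for Hsp90ab1.

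The comparison of HFD IP with CFD IP asks how diet changed the RNA bound to tagged ribosomes. No member passed the threshold, and the members with the smallest p were lower Xbp1 and higher Dnaja1 and Hsp90b1. The edgeR quasi-likelihood test with Benjamini-Hochberg adjustment over all genes called 0 members at an adjusted p under 0.1, while it called 0.0557% of all genes tested. At an unadjusted p under 0.05, 2 members were higher (background 6.08%) and 1 was lower (background 4.82%). DESeq2 called 1 member, Xbp1, and more genes of the whole table than edgeR did, as given at the end. The share of members that DESeq2 called was smaller than its share of all genes tested. A fit with a block for the animal and edgeR's likelihood ratio test called 0 members here and in each comparison that follows. The blocked fit used limma for the diet comparisons in IP and in input, and edgeR with animal terms for the others. The median log2 fold change was 0.26 over the members and 0.04 over all genes. Of the 36 members, 22 had a fitted value above 0 (61.1%, against 51.3% of all genes).

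Xbp1 encodes the transcription factor whose mRNA is spliced by IRE1, and gene counts do not show its splicing. It measured 80.2, 101 and 38.4 CPM in CFD IP and 13.5, 13.6 and 38.9 CPM in HFD IP. A library of each diet lay near 39 CPM, so the groups overlapped, although the other libraries stood well apart. The log2 fold change was -1.73 ± 0.66 (SE, n = 3 per group), with an adjusted p of 0.368 by edgeR's quasi-likelihood test and of 0.0895 by DESeq2 (0.0895 to 0.927 over all alternatives). In input, Xbp1 measured 14.3, 29.0 and 47.8 CPM on CFD and 18.9, 22.4 and 43.8 CPM on HFD, and these groups overlapped.

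Hsp90b1, the ER-resident Hsp90, measured 185, 230 and 215 CPM in CFD IP and 342, 352 and 315 CPM in HFD IP. The 2 groups did not overlap. Its log2 fold change was 0.68 ± 0.30 (SE, n = 3 per group), with an adjusted p of 0.408 by edgeR's quasi-likelihood test. Dnaja1, a J-domain cochaperone of cytosolic Hsp70, measured 73.7, 120 and 121 CPM in CFD IP and 152, 160 and 230 CPM in HFD IP, again with no overlap. Its log2 fold change was 0.78 ± 0.32, with an adjusted p of 0.394 by the same edgeR quasi-likelihood test.

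Groups separated without overlap in 4 members, all higher in HFD IP (11.1% of the 36, against a background of 5.94%), and in 0 members in the lower direction (background 4.66%). Besides Hsp90b1 and Dnaja1 these were Pdia6, an ER disulfide isomerase, and Syvn1, the ubiquitin ligase of ER-associated degradation. Pdia6 measured 34.1, 28.9 and 26.1 CPM in CFD IP and 50.9, 51.1 and 76.9 CPM in HFD IP. Syvn1 measured 43.9, 31.7 and 21.6 CPM in CFD IP and 78.2, 88.9 and 61.9 CPM in HFD IP. Hsp90b1, Pdia6 and Syvn1 are among the 8 members with an ER stress element printed above. Of those 8 members, however, 4 were fitted higher and 4 lower in HFD IP, with a median log2 fold change of 0.28, beside 7 higher and 4 lower and the same median of 0.28 for the 11 tested ER members whose windows lacked the element.

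Hspa5 and Calr, main chaperones of the ER, had fold changes near 0 in the pulldown, with wide errors. Hspa5 measured 59.5, 188 and 142 CPM in CFD IP and 48.1, 95.9 and 233 CPM in HFD IP, a log2 fold change of -0.05 ± 0.51 (SE, n = 3 per group). Calr, the lectin chaperone calreticulin, measured 131, 176 and 146 CPM in CFD IP and 87.9, 190 and 150 CPM in HFD IP, a log2 fold change of -0.08 ± 0.42. The HFD range contained the whole CFD range for both genes. Creld2 and Manf, secreted ER stress proteins, had log2 fold changes of -2.68 ± 1.83 and -1.34 ± 0.97, and Creld2 was at 0 counts in 1 HFD IP library. The ER folding class had a median log2 fold change of 0.61, with 7 of its 13 members fitted higher and 6 lower.

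The transcription factors downstream of PERK overlapped between diets in the pulldown. Atf4, which the PERK branch induces by translation, measured 92.7, 78.5 and 128 CPM in CFD IP and 67.0, 80.2 and 43.4 CPM in HFD IP, a log2 fold change of -0.65 ± 0.45 (SE, n = 3 per group). Ddit3 (CHOP), a pro-apoptotic target of ATF4, measured 7.97, 8.65 and 26.7 CPM in CFD IP and 8.95, 3.86 and 13.2 CPM in HFD IP. Trib3, another ATF4 target, had 0 counts in 10 libraries, 1 count in a CFD input library and 381 counts (13.8 CPM) in the input library of HFD animal 517, while the IP library of that animal held none. The class of sensors and transcription factors had a median log2 fold change of -0.42 over 6 tested genes, 2 of them fitted higher.

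Cytosolic and mitochondrial members had mostly positive fitted values in this comparison. In the cytosolic class 8 of 11 members were fitted higher in HFD IP, with a median log2 fold change of 0.23. Hsp90aa1, the inducible cytosolic Hsp90, measured 486, 454 and 291 CPM in CFD IP and 506, 410 and 871 CPM in HFD IP, and its groups overlapped. All 3 mitochondrial chaperones were fitted higher, with a median of 0.57, and none had an unadjusted p under 0.05. Hspd1 (Hsp60) measured 70.7, 118 and 76.7 CPM in CFD IP and 48.0, 121 and 180 CPM in HFD IP, and Hspa9, the mitochondrial Hsp70, measured 60.6, 32.0 and 134 CPM in CFD IP and 142, 94.2 and 98.7 CPM in HFD IP. Hspe1 (Hsp10) measured 17.3, 33.7 and 6.06 CPM in CFD IP and 50.6, 13.4 and 28.2 CPM in HFD IP. The groups overlapped for each of the 3 genes.

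The Rn45s share differed in this comparison without overlap, at 38.7% to 42.3% of counts in CFD IP and 17.1% to 19.1% in HFD IP. With Rn45s and Lars2 left out of the table, the log2 fold change was 0.66 for Hsp90b1, 0.76 for Dnaja1 and -1.76 for Xbp1. Neuron markers summed to 5097, 8996 and 8046 CPM in CFD IP and to 10130, 9881 and 8536 CPM in HFD IP. Summed immediate early genes, a sign of handling, were 688.5 to 1088 CPM in CFD IP and 507.8 to 706.4 CPM in HFD IP, and the immediate early and neuron sums overlapped between diets. The part of these shifts in the values of Hsp90b1, Dnaja1 and Xbp1 was not tested.

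**Figure D3:**
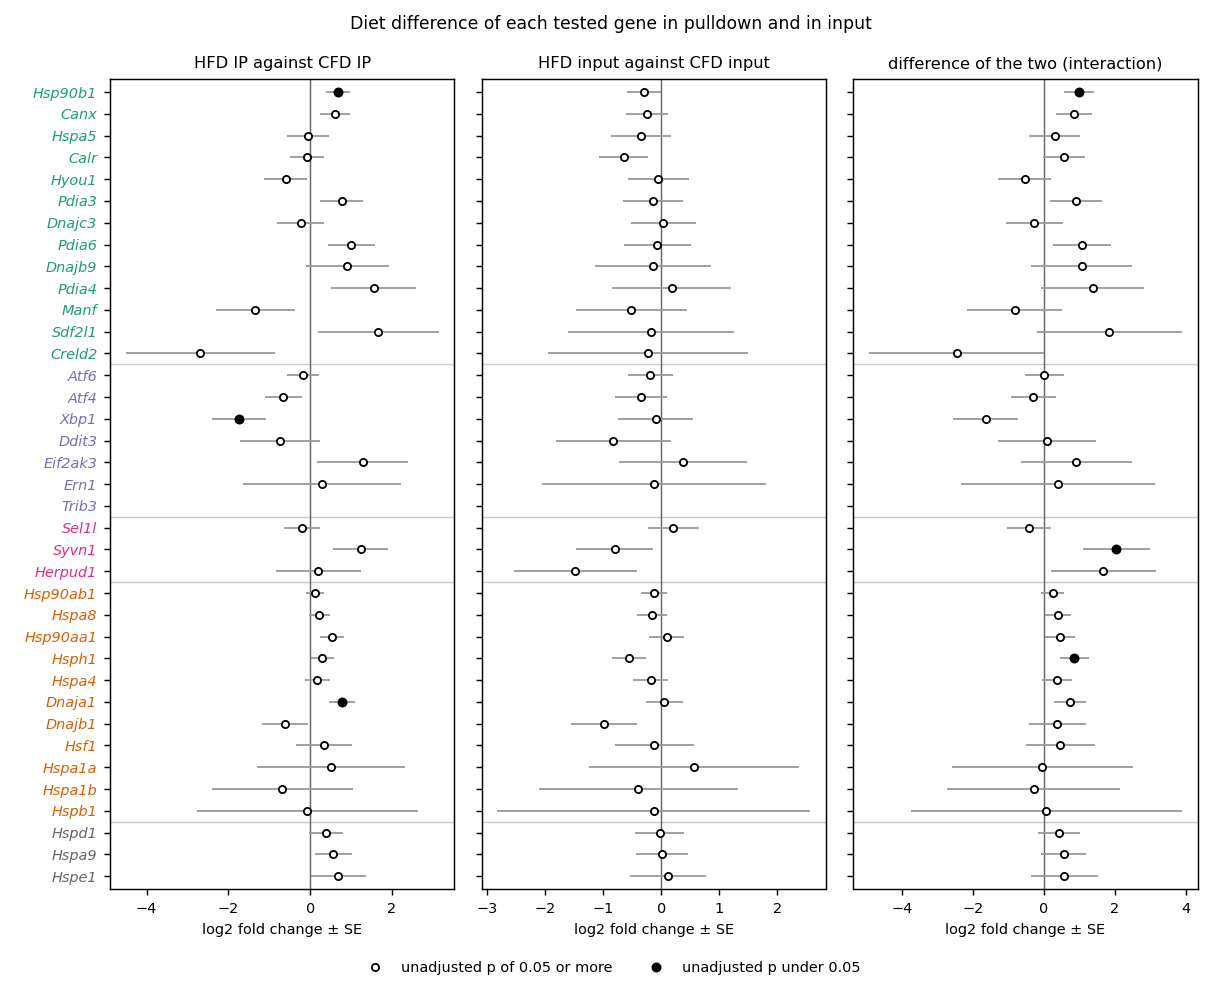
Log2 fold change ± SE of each tested gene for HFD against CFD in IP (left) and in input (middle), and the difference between these differences (right), with filled points at an unadjusted p under 0.05 and n = 3 per group. Filled points are Hsp90b1, Xbp1 and Dnaja1 in IP, none in input, and Hsp90b1, Syvn1 and Hsph1 in the right panel.

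In input RNA, the comparison of HFD with CFD gives the diet difference of whole white matter. The edgeR quasi-likelihood test with Benjamini-Hochberg adjustment called 0 members and 0% of all genes tested. At an unadjusted p under 0.05 there were 0 members in either direction (backgrounds 1.09% higher and 0.941% lower), and DESeq2 called 0 members. The members leaned downward, with 27 of 36 fitted lower and a median log2 fold change of -0.15, against -0.00 over all genes. Thus 25% of members were fitted higher, against 49.7% of all genes. Input groups did not overlap in 3 members, Canx, Hsp90ab1 and Hsph1, all lower on HFD (8.33%, background 4.33%), and in 0 in the other direction (background 6.05%). The groups of Hsp90ab1 nearly touched, with its nearest libraries at 1307 CPM on CFD and 1302 CPM on HFD.

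Hsph1, which recharges Hsp70 with ATP, had the smallest p of the members in input. It measured 443, 602 and 599 CPM in CFD input and 352, 368 and 399 CPM in HFD input, so each HFD library lay below each CFD library. The log2 fold change was -0.56 ± 0.29 (SE, n = 3 per group), with an adjusted p of 1 by edgeR's quasi-likelihood test. Canx, the membrane-bound lectin chaperone calnexin, measured 225, 241 and 204 CPM in CFD input and 187, 179 and 203 CPM in HFD input, where the nearest libraries differed by under 2 CPM. Immediate early genes summed to 786 to 1033 CPM in CFD input and 435.7 to 662 CPM in HFD input. Astrocyte markers summed to 4284 to 5308 CPM in CFD input and 3538 to 3739 CPM in HFD input. Both sums were lower on HFD without overlap, and their part in the values of Hsph1 and Canx was not tested.

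Pulldown and input were compared within each diet to ask which RNAs the tagged ribosomes carried. On CFD, the members with the smallest p were lower in IP, led by Dnaja1, Hsp90b1 and Canx, and none was called. The edgeR quasi-likelihood test with Benjamini-Hochberg adjustment called 0 members and 0.188% of all genes. At an unadjusted p under 0.05, 0 members were higher (background 5.94%) and 3 were lower (background 5.88%). DESeq2 called 1 member, Dnaja1, and again more genes of the whole table than edgeR did, as given at the end. Its share of members called was again smaller than its share of all genes tested. The median log2 fold change was -0.27 over the members and -0.02 over all genes.

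Dnaja1 measured 200, 188 and 219 CPM in CFD input, above each of its CFD IP libraries given before. The log2 fold change was -0.95 ± 0.32 (SE, n = 3 per group), with an adjusted p of 0.272 by edgeR's quasi-likelihood test and of 0.0705 by DESeq2 (0.0705 to 0.540 over all alternatives). Hsp90b1 measured 381, 272 and 405 CPM in CFD input, and its log2 fold change was -0.75 ± 0.30 with an adjusted p of 0.339 by edgeR's quasi-likelihood test. Canx measured 85.0, 153 and 131 CPM in CFD IP, and its log2 fold change was -0.86 ± 0.36 with an adjusted p of 0.368 by the same edgeR quasi-likelihood test. These 3 comparisons use the same CFD IP libraries as the diet comparison in IP, so a low value there enters both.

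The fractions did not overlap on CFD in 6 members with lower IP (16.7%, background 8.72%), namely Hsp90b1, Canx, Hspa8, Hsp90aa1, Hspa4 and Dnaja1, of which 4 are cytosolic. They did not overlap in 1 member with higher IP, Calr (background 6.43%). Hsp90aa1 measured 621, 599 and 605 CPM in CFD input, and Hspa4, an Hsp70 nucleotide exchange factor, measured 181, 224 and 213 CPM in CFD input and 136, 141 and 166 CPM in CFD IP. Neuron markers were also lower in CFD IP (5097 to 8996 CPM) than in CFD input (7954 to 12480 CPM), with overlapping ranges. Oligodendrocyte markers were higher in CFD IP (5176 to 6412 CPM) than in CFD input (4084 to 5047 CPM), and Rn45s took 38.7% to 42.3% of counts against 8.602% to 14.2%, both without overlap, as were the endothelial sums given before and the blood markers (0.242 to 0.561 CPM in CFD IP and 3.22 to 21.3 CPM in CFD input). The part of these shifts in the lower chaperone values was not tested.

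On HFD, the members with the smallest p were higher in IP, Calr and Syvn1, and none was called. The edgeR quasi-likelihood test with Benjamini-Hochberg adjustment called 0 members and 0.0139% of all genes, and DESeq2 called 0 members. At an unadjusted p under 0.05, 2 members were higher (background 4.68%) and 0 lower (background 1.83%). Calr measured 29.7, 49.8 and 88.3 CPM in HFD input and 87.9, 190 and 150 CPM in HFD IP, so the groups met at about 88 CPM. Its log2 fold change was 1.35 ± 0.42 (SE, n = 3 per group), with an adjusted p of 0.578 by edgeR's quasi-likelihood test.

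Syvn1 measured 6.17, 20.7 and 44.4 CPM in HFD input, below each of its HFD IP libraries. Its log2 fold change was 1.68 ± 0.68 (SE, n = 3 per group), with an adjusted p of 0.669 by edgeR's quasi-likelihood test. The fractions did not overlap on HFD in 3 members, Syvn1, Pdia6 and Hsph1, all higher in IP (8.33%, background 6.13%), and in 0 with lower IP (background 7.98%). Pdia6 measured 18.0, 19.7 and 50.75 CPM in HFD input, and its lowest HFD IP library was at 50.91 CPM, so its groups nearly touched. Hsph1 measured 448, 622 and 480 CPM in HFD IP. Astrocyte markers were higher in HFD IP (3921 to 7650 CPM) than in HFD input (3538 to 3739 CPM), and Rn45s took 17.1% to 19.1% of counts against 6.34% to 9.29%, both without overlap. Their part in the values of Calr, Syvn1, Pdia6 and Hsph1 was not tested.

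Calr was the member with a pulldown level above input in all 6 animals. On CFD its IP level was 1.89, 1.91 and 1.44 times the input level in animals 489, 555 and 556, and on HFD it was 2.93, 3.79 and 1.70 times the input level in animals 516, 517 and 676. Of the 37 members, 1 lay above input in 6 of 6 animals (background 4.09% of all genes tested) and 0 were lower in 6 of 6 (background 4.15%). Another 5 members, Hyou1, Atf6, Sel1l (the adaptor of the Syvn1 ligase), Hspa1b and Dnajb1, were higher in 5 of 6 animals. More members, namely Hspa5, Pdia3, Dnajc3, Hsp90aa1, Hspa4, Dnaja1 and Hspe1, were lower in 5 of 6. The share of all genes at 5 of 6 was not computed.

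Xbp1 and Ddit3 split between animals among the transcription factors. The IP level of Xbp1 was 5.44 and 3.44 times the input level in CFD animals 489 and 555, but 0.806 times in CFD animal 556 and 0.613 to 0.889 times in the HFD animals. Ddit3 spanned a wider range, from 0.324 times its input level in CFD animal 489 to 3.63 times in CFD animal 556. Hspa5 was lower in IP than in input in 5 of 6 animals, from 0.229 times in CFD animal 489 to 0.888 times in HFD animal 676, and was 1.495 times its input level in CFD animal 555. Hspa5 and Calr, both with an ER stress element, thus lay on opposite sides of input in 5 of the 6 animals.

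**Figure D4:**
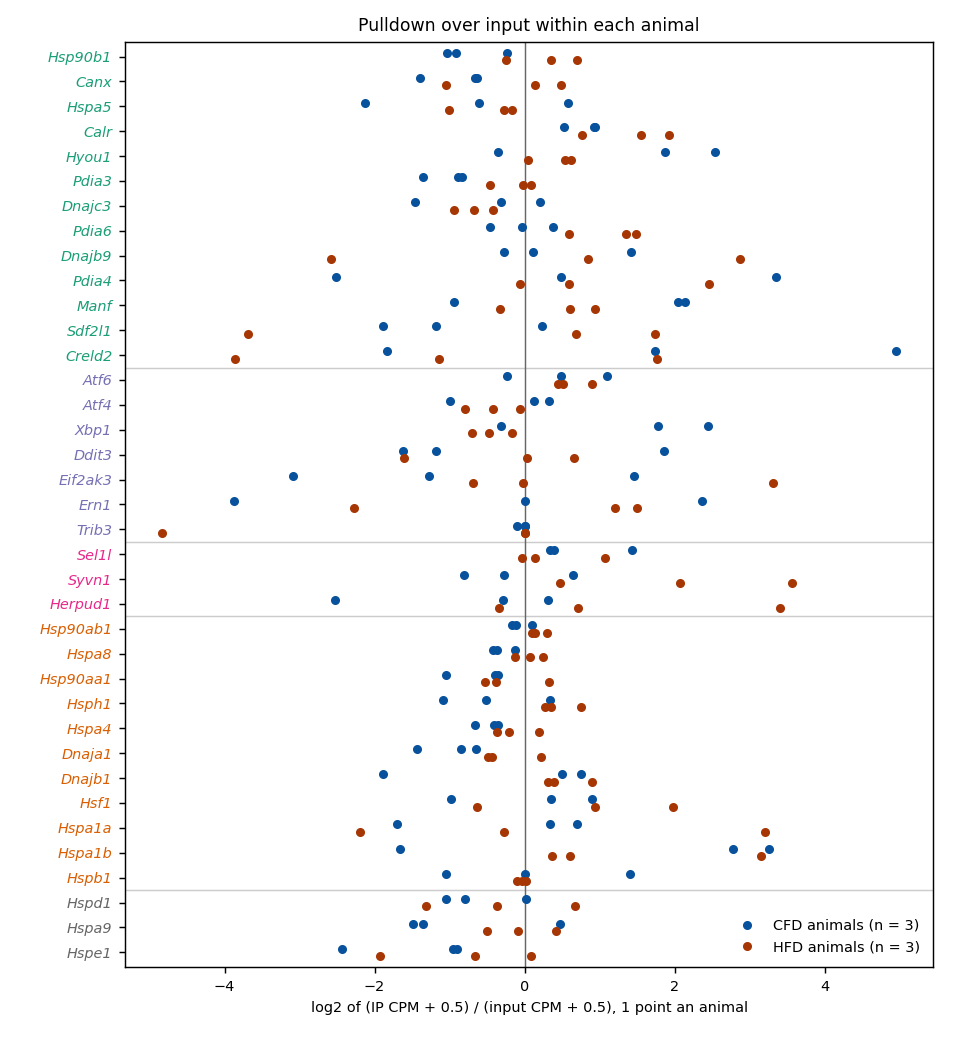
Log2 ratio of IP to input (CPM plus 0.5) of each gene, with 1 point an animal, CFD in blue and HFD in brown, n = 3 each. The 6 points of Calr lie right of 0, whereas most low genes scatter on both sides.

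The diet difference in IP was then set against that in input as an interaction. The edgeR quasi-likelihood test with Benjamini-Hochberg adjustment called 0 members and 0% of all genes, and DESeq2 called 0 members. At an unadjusted p under 0.05, 3 members had a more positive diet difference in IP (background 3.15%) and 0 a more negative one (background 2.22%). These were Hsp90b1 at 0.98 ± 0.42 on the log2 scale, Syvn1 at 2.03 ± 0.94 and Hsph1 at 0.86 ± 0.41 (SE, n = 3 per group), with adjusted p from 0.884 to 0.896 by edgeR's quasi-likelihood test. The fitted interaction was above 0 in 27 of 36 members (75%), against 52.2% of all genes, and its median was 0.42, against 0.06 over all genes.

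Summed levels give each class in 1 value per library. The cytosolic sum was 3755 ± 145 CPM in CFD input, 3100 ± 392 CPM in CFD IP, 3383 ± 252 CPM in HFD input and 3678 ± 615 CPM in HFD IP (SD, n = 3). The mitochondrial sum was 291 ± 37.9 CPM in CFD input, 183 ± 34.0 CPM in CFD IP, 293 ± 42.2 CPM in HFD input and 259 ± 42.5 CPM in HFD IP. The mitochondrial sum of each CFD IP library (148.5 to 216.4 CPM) lay below that of each other library, the lowest of which was 228 CPM. It was lower in IP than in input in 5 of 6 animals, from 0.445 to 0.878 times, and 1.17 times input in HFD animal 676.

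The ER folding sum was 1164 ± 181 CPM in CFD input, 933 ± 159 CPM in CFD IP, 974 ± 336 CPM in HFD input and 1135 ± 290 CPM in HFD IP (SD, n = 3), and its 4 groups overlapped. The degradation sum of each of the 6 animals was higher in its IP library than in its input library, from 1.09 times in HFD animal 676 to 2.54 times in HFD animal 517. Most of this sum was Sel1l, at a mean of 166 CPM against 43.5 CPM for Syvn1 and 16.9 CPM for Herpud1. Singly, 0 of the 3 genes were higher in all 6 animals. Sel1l was higher in 5 animals, Syvn1 in 4 and Herpud1 in 3. The sum of sensors and transcription factors was 385 ± 96.6 CPM in CFD IP and 281 ± 46.1 CPM in HFD IP, again with overlap.

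**Figure D5:**
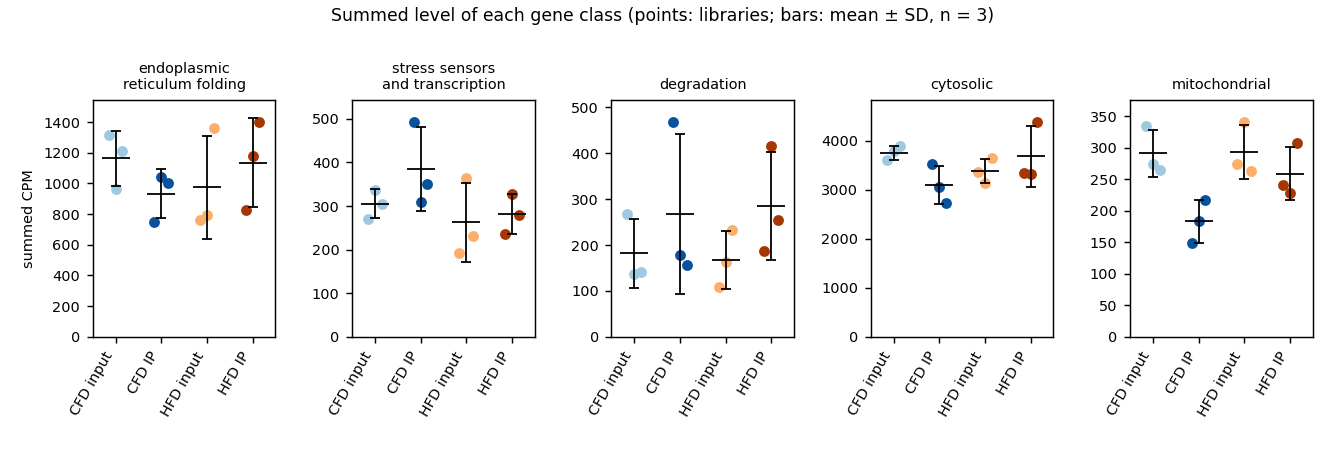
Summed CPM of the 5 gene classes in each library, with points for libraries and bars for mean ± SD, n = 3 per group, and axes that start at 0. The mitochondrial sum of CFD IP lies below that of the other 3 groups, and the ER folding groups overlap.

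Genes that work together did not always vary together over the 12 libraries. Hspa8 and Hsp90aa1 had Pearson's r = 0.74 on log2 CPM, and Hspa5 and Hsp90b1 had r = 0.43. Hspd1 and Hspe1, which share the heat shock elements printed above, had r = 0.23. Hspa1a and Hspa1b, whose promoter windows were near-identical, had r = -0.15. Both genes were low and their separate counts are uncertain, as given before, so this value says little about how they vary together. These values are descriptions over libraries of 4 groups and 6 animals.

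A wider list of 98 genes of the same pathways, without the 37 members, was read from the same fit. Of the 98 genes, 95 were tested, and the edgeR quasi-likelihood test with Benjamini-Hochberg adjustment called 0 in each of the 5 comparisons. In HFD IP against CFD IP, 7 of the 95 had an unadjusted p under 0.05 and were higher (background 6.08% of all genes). In the lower direction there was 1, a smaller share than the background of 4.82%. The smallest p were those of Hspa4l, a relative of Hspa4 (log2 fold change 1.11 ± 0.36, adjusted p = 0.326 by edgeR's quasi-likelihood test), and Cct4, a subunit of the cytosolic chaperonin (1.59 ± 0.59, adjusted p = 0.363). In CFD IP against CFD input, 0 of the 95 were higher and 5 lower at that threshold (backgrounds 5.94% and 5.88%), with the smallest p for Hspa4l (-1.12 ± 0.36) and Hsf2 (-2.79 ± 0.93), a relative of Hsf1.

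The other comparisons of the wider list held few genes at an unadjusted p under 0.05. In HFD IP against HFD input the single such gene was Trap1, the mitochondrial Hsp90, at 1.70 ± 0.70 on the log2 scale (background 4.68% higher). In HFD input against CFD input it was Hspa12b, a distant Hsp70 relative, at 6.07 ± 2.56 with overlapping groups (background 1.09% higher), a fitted value that depends on the prior count. For the interaction, 2 genes had a more positive diet difference in IP (background 3.15%), among them Hspa4l at 1.23 ± 0.50. A more negative one was found in 0 genes (background 2.22%). Among the 12 mitochondrial chaperones and proteases of this list, 9 were fitted higher in HFD IP than in CFD IP (75%, against 51.3% of all genes). Their median log2 fold change was 0.72.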

How the data were processed

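White matter RNA of 6 mice was measured in 12 libraries, an IP and an input library of each animal. Per the labels the libraries were made with a Nugen Ovation kit, whereas the methods name a TruSeq kit with Ribo-Zero, so the kit is uncertain. The authors aligned reads to mm10 with STAR, the submitters' processing notes also name HTSeq, and whether strand was used is not given in the sources used here. The authors deposited raw read counts, 1 whole number for each gene in each library. The deposited FPKM values were used only to obtain gene lengths. The authors' normalized signal, log2 fold changes and p-values were also in the table and were not used.

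Tests were run in edgeR 4.0.16 under R 4.3.3. Its filterByExpr (minimum count 10, minimum total 15) kept 14354 of 24060 genes, libraries were scaled by TMM, and 4 group means were fitted to all 12 libraries with glmQLFit and tested with glmQLFTest. Benjamini-Hochberg adjustment covered the whole table, and genes under an adjusted p of 0.1 were called, the threshold of the study. Standard errors are fold changes over the square root of F. Animals were the replicates, and the lowest chi-square per degree of freedom between 2 libraries of a group was 119. IP and input of 1 animal are paired by the animal, and their deviations from the group means correlated at 0.0064 to 0.19. The fit was tested on simulated data.

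Alternatives were DESeq2 1.42.0, a replicate block, edgeR's likelihood ratio test, RLE scaling, no filter, no Rn45s and Lars2, a stricter threshold, separate fits of the 6 libraries compared, and leaving out each animal. The replicate block used limma 3.58.1 (voom) for the diet comparisons in IP and in input, and edgeR with animal terms for the others. IP to input ratios used a pseudocount of 0.5 CPM. Named with a fold change were members called, up to 3 members per direction and comparison with the smallest unadjusted p under 0.05, and a set of reference members. Hsph1 in input, Creld2, Manf, and levels of Pdia6, Canx and Hspa4, were added after their values were seen. The members, gene lists and markers were chosen with earlier results of these data known. Libraries hold reads without molecular identifiers, so counts carry more error than counting alone.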

Additional observations from a re-analysis of the deposited data

How the results depend on the processing

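Every alternative kept 0 members called, except DESeq2, which called 1 member in HFD IP against CFD IP (Xbp1) and 1 in CFD IP against CFD input (Dnaja1). DESeq2 also called more of the 14354 genes kept by the filter. It called 770 against 8 by edgeR in the first comparison and 816 against 27 in the other, and the cause was not tested. The 2 HFD fractions gave 160 called genes with DESeq2 against 2, the input comparison 31 against 0 and the interaction 121 against 0. The likelihood ratio test called 227, 277, 4, 0 and 37 genes in these comparisons. In the fits with a replicate block by animal, 5, 139, 24, 0 and 0 genes were called, and no call of a member changed. The diet comparisons in IP and in input came from limma here, and the others from paired edgeR fits. With the replicate block the log2 fold change of Dnaja1 in CFD IP against input was -0.98 and that of Xbp1 in HFD IP against CFD IP was -1.81. The fold changes of Xbp1 with 1 animal left out ranged from -2.43 to -1.43, all with an adjusted p over 0.1.

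Medians over a class rest on few genes and moved more when 1 animal was left out. The ER folding median of the interaction ranged from 0.28 (without animal 517) to 0.89, the median of sensors and transcription factors in HFD input against CFD input from -0.57 (without 517) to 0.056, and the degradation median in HFD IP against CFD IP from -0.33 to 1.497 (without 489). The cytosolic median in HFD input against CFD input ranged from -0.61 (without 676) to 0.013, and these last 3 medians changed sign. The mitochondrial median ranged from -0.96 (without 556) to -0.37 in CFD IP against input, where it was -0.91 without 555, from -0.65 (without 676) to -0.031 in HFD IP against input, and from 0.20 (without 489) to 0.78 in the interaction. The other 312 class medians recomputed stayed within the spread between animals, and none of the scalings moved the median of all genes by over 0.1.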
